A study of Mus musculus with 4 samples.

Results

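The replication-dependent histone genes are the clustered genes that encode the linker histone H1 and the core histones H2A, H2B, H3 and H4 which package newly copied DNA. They were taken as the protein-coding genes whose symbol begins with Hist, a cluster number from 1 to 4 and one of the 5 classes. The deposited table gives most of them under newer symbols, and only 8 of its own gene names met this rule. The rule was therefore also applied to the older symbol that GENCODE gives for the same gene identifier, which found 67 of the 55385 genes in the table. They comprised 6 H1, 18 H2A, 18 H2B, 12 H3 and 13 H4 genes. A further 3 genes with such a symbol were pseudogenes, and the 70 matches without the coding condition were not used as a group. The RNA came from GC-1 cells, a mouse line made from spermatogonia by immortalisation with a viral antigen, which received either of 2 plasmids and were harvested 24 h or 36 h later. Control cells had the MYC plasmid, although their treatment label reads untreated, and the TET1 overexpression group had MYC-TET1. Each of the 4 conditions was sequenced once, so a difference between 2 libraries has no replicate check and cannot be told apart from a difference between single cultures or library preparations.

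Most messenger RNAs end in a poly(A) tail, but the messages of these genes normally end just after a short stem-loop, which stays on the message and is bound by the stem-loop binding protein SLBP. A dedicated complex cuts the precursor just downstream of it. Cells make them mainly in S phase, when histones are needed, and destroy them quickly when DNA synthesis stops. Some histone genes can also be read past the stem-loop to a downstream poly(A) site. The libraries were made with an Illumina TruSeq kit that, as a general property of the kit, selects RNA by its poly(A) tail. All values below are therefore the part of histone RNA that entered such libraries, and total histone RNA was not analysed here. Because these are bulk samples, fewer cells in S phase and less histone RNA per cell cannot be told apart.

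The stem-loop is the feature that sets these transcripts apart, so it is shown first. The search was for a perfect hairpin of 6 base pairs and a 4-base loop anywhere in an annotated transcript. The stem had to begin with GG and the loop with TT, and the other bases were free. Such a hairpin was found in 44 of the 67 genes, against 185 of all 55450 annotated genes (0.334%). In the 44 genes it took 6 sequence forms. It was present in 4 of 6 H1, 11 of 18 H2A, 10 of 18 H2B, 8 of 12 H3 and 11 of 13 H4 genes. Each line below gives the mouse GRCm38 sequence as DNA, 5′ to 3′ along the transcript, with the 16 bases of the stem-loop in capitals. The genes are those with the highest levels that carry the hairpin and 1 gene for every remaining form.
H1f2, an H1 gene, chr13:23739505-23739534, forward strand: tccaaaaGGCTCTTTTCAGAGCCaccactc
H2aw, an H2A gene, chr11:58955165-58955194, forward strand: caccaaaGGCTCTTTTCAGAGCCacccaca
H2bu2, an H2B gene, chr11:58949342-58949371, forward strand: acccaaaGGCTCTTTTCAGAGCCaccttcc
H2ac18, an H2A gene, chr3:96246025-96246054, forward strand: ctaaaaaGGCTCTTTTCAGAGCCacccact
H2ac20, an H2A gene, chr3:96220411-96220440, reverse strand: ccaaaaaGGCTCTTTTTAGAGCCaccaaat
H3c6, an H3 gene, chr13:23561896-23561925, reverse strand: ccaaaacGGCTCTTTTAAGAGCCacctcca
Hist1h4m, an H4 gene, chr13:21812122-21812147, forward strand: aactaaaGGCCCTTTTCAGGGCCatc
H4c9, an H4 gene, chr13:22040959-22040988, reverse strand: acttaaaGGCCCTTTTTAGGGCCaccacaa
H4c11, an H4 gene, chr13:21735430-21735459, forward strand: ccctaaaGGTCCTTTTCAGGACCaccacat
The form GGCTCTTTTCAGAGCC was the most frequent, in 26 genes, of which 3 were H1, 10 H2A, 8 H2B and 5 H3 genes. No H4 gene had it. The form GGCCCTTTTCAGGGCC occurred in 7 genes, all of them H4. The forms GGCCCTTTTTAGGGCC and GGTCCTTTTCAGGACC were found in 2 H4 genes each, and the form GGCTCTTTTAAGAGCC in 6 genes of the classes H1, H2B and H3. The form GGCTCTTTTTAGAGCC was found in H2ac20 alone.

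The annotated transcripts fell into 3 kinds by where they end. In 22 genes the transcript ran more than 100 bases past the stem-loop, in 22 it ended within 100 bases of it, and in 23 no stem-loop lay within the model. A poly(A) signal (AATAAA or ATTAAA) stood in the last 50 bases of 11 of the 22 extended transcripts, of 2 of the 22 that end at the stem-loop and of 4 of the 23 others. The H2aw transcript runs 1643 bases past the hairpin and that of H1f2 runs 840 bases past it, and both end with a poly(A) signal. The models of H2bc4 and H2bc21 hold no stem-loop although they are 1156 and 2620 bases long and only 378 bases of each are coding. The H2bc21 model ends with a poly(A) signal and that of H2bc4 does not.

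Histone RNA was scarce in every library. The 67 genes together received 2048 counts in MYC at 24 h, 2674 in MYC at 36 h, 2267 in MYC-TET1 at 24 h and 2889 in MYC-TET1 at 36 h. In CPM, the counts scaled to a common library total, these are 30.7 and 44.1 for MYC and 31.7 and 39.8 for MYC-TET1, at 24 h and 36 h in turn. The 2 libraries at 36 h were thus the highest, and their intervals from counting error, 40.9 to 47.5 for MYC and 37.0 to 42.7 for MYC-TET1, did not overlap the 28.2 to 33.4 and 29.2 to 34.4 of the libraries at 24 h. One sequenced fragment was estimated from the deposited values to add 3.76 to the counts. On that estimate the sums stand for only 545, 711, 603 and 768 fragments. Every interval given here was computed from such fragment equivalents. It covers counting error only.

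As many as 59 of the 67 genes stayed below an FPKM of 1 in all 4 libraries, where FPKM is the number of fragments per kilobase of transcript, scaled to the sequencing depth. Of these 59 genes 6 had a count of 0 throughout, which allows up to 3 fragments, or 0.155 to 0.186 CPM. They were H1f5, the testis-specific H1f6, H2ac1, H2ac19, H2ac21 and the testis-specific H2bc1. A further 20 genes were at 0 in some libraries, and 41 were counted in all 4. The median over the 67 genes of the mean FPKM was 0.183. By comparison, the 11 genes of the list of replication-independent histones, which encode variants and are mostly read into polyadenylated messages, had a median of 33.5. The most abundant of these, H3f3b, which encodes H3.3, averaged an FPKM of 196.

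**Figure D1:**
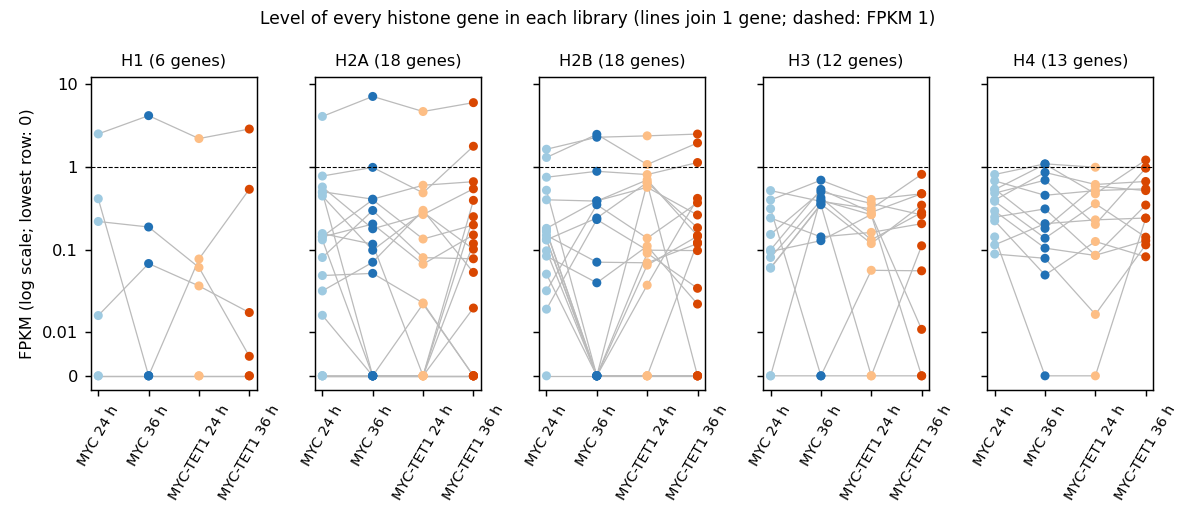
FPKM of each of the 67 histone genes in the 4 libraries, on a log scale with genes at 0 drawn on the lowest row, by class; grey lines join the values of 1 gene. Most points lie under the dashed line at an FPKM of 1, and no H3 gene reaches it.

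Only 8 genes reached an FPKM of 1 in any library. In descending order of mean FPKM they were H2aw with 5.39, H1f2 with 2.90, H2bc4 with 2.17, H2bu2 with 1.68, H2ac18 with 0.998, H4c9 with 0.960, H2bc21 with 0.887 and Hist1h4m with 0.817. The 5 genes with the most counts, H2aw, H1f2, H2bc4, H2bc21 and H2bu2, held 62.3% and 70.0% of the histone counts of the MYC libraries and 66.0% and 67.4% of those of the MYC-TET1 libraries, at 24 h and 36 h in turn.

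**Figure D2:**
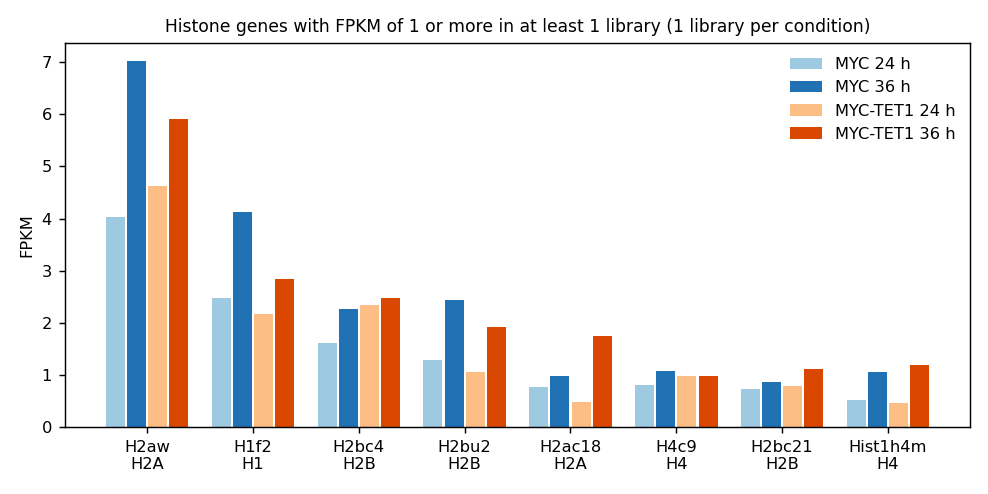
FPKM of the 8 histone genes that reached an FPKM of 1 in at least 1 library, one bar per library, ordered by mean FPKM. H2aw is highest in every library, at 4.03 to 7.02, and both of its 36 h bars exceed both of its 24 h bars.

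By the end of the transcript, the 22 extended genes held 1370 counts in MYC at 24 h, 2035 in MYC at 36 h, 1485 in MYC-TET1 at 24 h and 1911 in MYC-TET1 at 36 h. That was between 65.5% and 76.1% of all histone counts. The 22 genes that end at the stem-loop held 7.29% to 10.3%. Longer transcripts collect more counts. On the length-corrected scale the summed FPKM of the extended genes lay between 11.5 and 19.4, and that of the genes that end at the stem-loop between 4.67 and 7.30. Without H2aw and H1f2 the other 20 extended genes summed to 5.03 and 8.27 in MYC, at 24 h and 36 h in turn. In MYC-TET1 they summed to 5.16 and 6.18. These sums are below the 5.06 and 7.30 of the genes that end at the stem-loop in MYC at 24 h and in MYC-TET1 at 36 h. They are above the 5.61 in MYC at 36 h and the 4.67 in MYC-TET1 at 24 h. Leaving out H2aw and H1f2 was chosen after seeing the data. The medians of the mean FPKM lay closer together, at 0.190 for the extended genes, 0.174 for those that end at the stem-loop and 0.183 for those without one. H2aw and H1f2, the genes with the highest FPKM, are both of the extended kind.

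**Figure D3:**
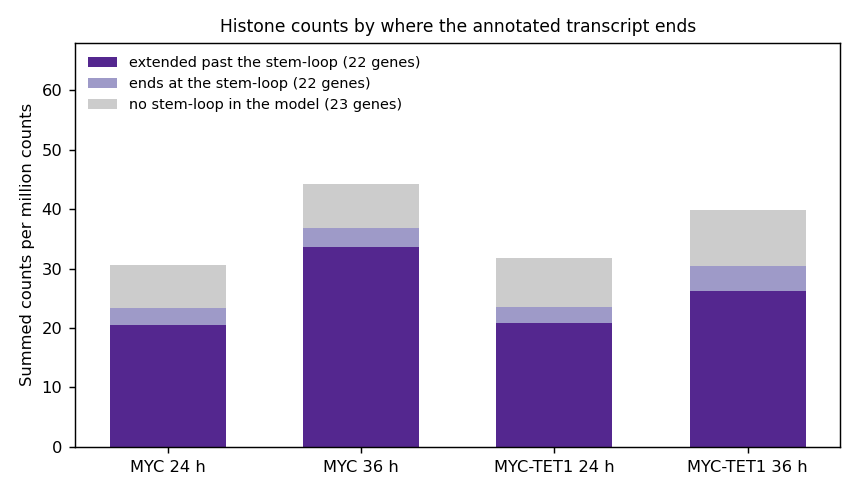
Stacked bars of the summed CPM (counts scaled to a common library total) of the histone genes in each library, by where the annotated transcript ends relative to the stem-loop. The extended genes make up most of each bar, from 20.5 CPM in MYC at 24 h to 33.6 CPM in MYC at 36 h.

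The first question was whether histone RNA differed between 24 h and 36 h. In control cells the summed counts were 1.44-fold higher at 36 h (log2 ratio 0.52, 95% interval 0.36 to 0.69). In the TET1 overexpression group they were 1.26-fold higher (log2 ratio 0.33, 0.17 to 0.48). The median log2 ratio of all genes compared was 0.019 and 0.020 in these comparisons. The 2 time differences themselves differed by -0.20 on the log2 scale with a counting standard error of 0.11, which is less than 2 standard errors of counting alone. Most of the higher counts at 36 h lay in the abundant genes. The 5 genes with the most counts were all higher at 36 h in both plasmids, with summed log2 ratios of 0.69 (0.49 to 0.90) in MYC and 0.36 (0.17 to 0.55) in MYC-TET1. The other 62 genes gave 0.19 (-0.09 to 0.48) and 0.27 (-0.01 to 0.54), intervals that include 0. In MYC-TET1 the intervals of the 5 and of the 62 overlap. The 5 were picked by their counts in these same libraries, and their difference from the other 62 was not tested. Gene by gene over all 67, FPKM was higher at 36 h for 30 and lower for 29 in MYC, and higher for 36 and lower for 22 in MYC-TET1. The shares higher, 50.8% and 62.1% of the histone genes with a count in either library, stand beside 51.8% and 52.6% of all such genes. Higher at 36 h in both plasmids were 19 genes and lower in both were 10, or 31.1% and 16.4% of the 61 genes counted in any library, against 27.0% and 22.4% of all such genes.

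At a threshold of 2-fold, with a pseudocount of 0.1 added to FPKM and an FPKM of at least 1 in 1 of the 2 libraries, 0 of 6 histone genes compared were called by time in MYC, where 4.72% of all 11972 genes compared were called. In MYC-TET1, 2 of 7 were called, both higher at 36 h, against 3.90% of 11901 genes. They were H2ac18 and Hist1h4m, at log2 ratios of 1.67 and 1.19, and with a pseudocount of 1 neither was called. A filter at an FPKM of 5 leaves both out of the comparison, as their highest FPKM was 1.76 and 1.20. Of the 50-base windows of their transcripts, 89.4% and 89.8% also occur in another gene, so the counting could have split their reads. A gene that passed the filter on its higher library alone could only show a difference, and these counts are given as a description.

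A fit that uses the 4 libraries together, with time and plasmid as additive terms in edgeR's quasi-likelihood test, treats the 2 plasmids as the replicates of a time and leaves 1 residual degree of freedom. For time it called 0 of the 40 histone genes tested, where 0.0989% of all 17194 genes were called after Benjamini-Hochberg adjustment. At an unadjusted p under 0.05 it found 2 histone genes, H2aw and H1f2, both higher at 36 h, among 1914 genes in all, which is 11.1% of those tested. Their log2 fold changes were 0.55 for H2aw, with an adjusted p of 0.378, and 0.53 for H1f2, with an adjusted p of 0.445. DESeq2 gave an adjusted p for 10 of the 40 and called 0. At an unadjusted p under 0.05 it found 1 of the 40, against 8.11% of all genes.

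Other values moved with time as well. The summed counts of the 2 mitochondrial ribosomal RNAs were lower at 36 h by log2 ratios of -0.60 (-0.62 to -0.58) in MYC and -0.56 (-0.58 to -0.55) in MYC-TET1. Taken singly, the log2 FPKM ratios of the 2 were -0.71 and -0.09 in MYC, and -0.69 and -0.01 in MYC-TET1. Of 6 markers of Sertoli cells, 3 reached an FPKM of 1, and the summed FPKM of the list was 36.3 in MYC at 36 h and 23.1 to 23.9 in the other libraries, with Wt1 alone at an FPKM of 25.6 there and 13.2 to 14.0 elsewhere. The part of either in the histone difference was not tested. Of 14 markers of spermatogonia only Uchl1 and Itga6 reached an FPKM of 1, and 6 of the 14, with Zbtb16, Dazl, Stra8 and Nanos2 among them, were at 0 in every library. Of 7 markers of fibroblasts and peritubular cells 6 reached it, with summed FPKM between 446 and 491. None of the 6 Leydig cell markers did. The plasmid labels were checked by Tet1, which does not check the labels of time. Tet1 had 61 and 59 counts in the MYC libraries and 49451 and 24467 counts in the MYC-TET1 libraries, at 24 h and 36 h in turn.

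The second question was whether TET1 overexpression was accompanied by a difference in histone RNA. Over all 67 genes none was detectable at this depth. Relative to MYC, the summed counts in MYC-TET1 had a log2 ratio of 0.05 (-0.12 to 0.22) at 24 h and -0.15 (-0.30 to 0.00) at 36 h. The kinds of transcript differed in sign at 36 h. The 22 genes extended past the stem-loop gave -0.35 (-0.53 to -0.17), the 23 without a stem-loop in the model gave 0.35 (0.02 to 0.70), and the 22 that end at the stem-loop gave 0.36 (-0.16 to 0.89). At 24 h the intervals of all 3 kinds included 0. The 5 genes with the most counts gave -0.20 (-0.38 to -0.02) at 36 h and the other 62 gave -0.03 (-0.30 to 0.24). By the 2-fold rule, 0 of 4 histone genes compared were called at 24 h, where 3.22% of 11842 genes were, and 0 of 8 at 36 h, where 3.75% of 11959 genes were. FPKM was higher in MYC-TET1 at both times for 8 of the 67 genes and lower at both for 9, or 13.1% and 14.8% of the 61 genes counted in any library, against 21.4% and 21.8% of all such genes. For plasmid, edgeR called 0 of the 40 histone genes tested, against 0.0465% of all genes, and at an unadjusted p under 0.05 it also found 0, where 3.88% of all genes had such a p. DESeq2 called 0 as well, with 0 at an unadjusted p under 0.05 against 3.09% of all genes.

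**Figure D4:**
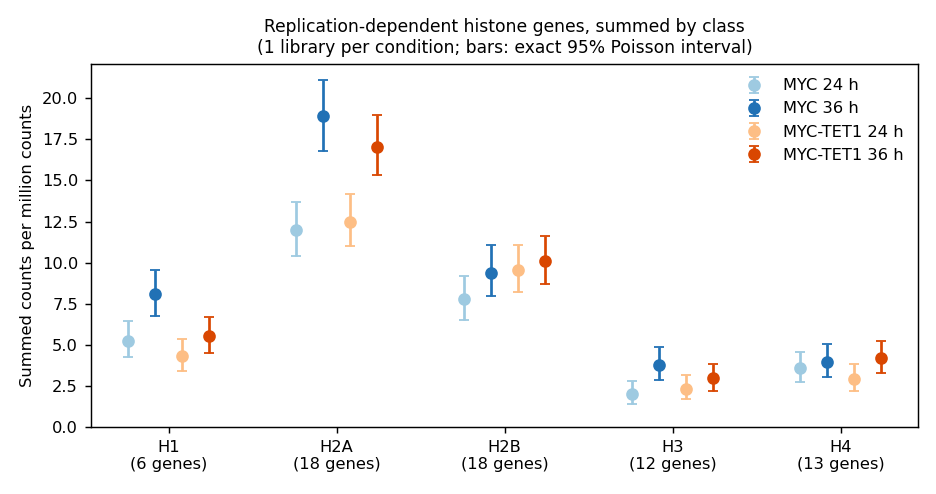
Summed CPM of each histone class in the 4 libraries; the bars are exact 95% Poisson intervals of the fragment equivalents. In all 5 classes the 36 h point lies above the 24 h point of the same plasmid, and H3 is the lowest class in every library.

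The H1 genes encode the linker histones that bind where DNA enters and leaves the nucleosome. Their summed CPM was 5.27 in MYC at 24 h, 8.08 in MYC at 36 h, 4.31 in MYC-TET1 at 24 h and 5.54 in MYC-TET1 at 36 h. The MYC library at 36 h stood highest. At 36 h the class was lower in MYC-TET1 than in MYC, with a log2 ratio of -0.54 (-0.92 to -0.16), and at 24 h the ratio was -0.29 (-0.74 to 0.15). By time the log2 ratio was 0.62 (0.21 to 1.01) in MYC and 0.36 (-0.07 to 0.80) in MYC-TET1. Without the gene H1f2 it was 0.02 (-1.03 to 1.13) in MYC and 0.23 (-1.10 to 1.61) in MYC-TET1.

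Most counts of the class came from H1f2 (ENSMUSG00000036181, chr13:23738808-23740367, forward strand), a somatic H1 subtype. Its counts were 288 in MYC at 24 h, 431 in MYC at 36 h, 271 in MYC-TET1 at 24 h and 358 in MYC-TET1 at 36 h, and its FPKM in that order was 2.48, 4.12, 2.18 and 2.84. The count ratio of MYC-TET1 to MYC at 36 h was -0.53 on the log2 scale (-0.94 to -0.13), while for plasmid over both times edgeR gave a log2 fold change of -0.35 with an adjusted p of 0.956. Without H1f2 the other 5 H1 genes had 64 and 59 counts in MYC and 37 and 44 in MYC-TET1, at 24 h and 36 h in turn, and their log2 ratio by plasmid was -0.89 (-2.15 to 0.35) at 24 h, where that of H1f2 was -0.19 (-0.68 to 0.29), and -0.68 (-1.89 to 0.50) at 36 h. H1f4, another somatic subtype, had 32 and 25 counts in the MYC libraries and 10 and 1 in the MYC-TET1 libraries, at 24 h and 36 h in turn. This is a difference of a few fragments, and the gene overlaps H2bc6 on the same strand.

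The H2A genes form one of the core dimers with H2B. They were the class with the most counts, with 800 and 1143 in MYC and 896 and 1236 in MYC-TET1, at 24 h and 36 h in turn. On the CPM scale too, both 36 h libraries, at 18.9 and 17.0, were higher than both 24 h libraries. The log2 ratio by time was 0.65 (0.40 to 0.91) in MYC and 0.44 (0.20 to 0.69) in MYC-TET1, and by plasmid it was 0.07 (-0.21 to 0.34) at 24 h and -0.15 (-0.37 to 0.08) at 36 h. Both plasmid ratios changed sign without the gene H2aw, to -0.65 (-1.40 to 0.08) and 0.41 (-0.22 to 1.07).

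A single gene, H2aw (ENSMUSG00000078851, older symbol Hist3h2a, chr11:58954685-58956830, forward strand), held most of the H2A counts. It had 644 and 1010 counts in MYC and 790 and 1025 in MYC-TET1, at 24 h and 36 h in turn. Its FPKM was 4.03, 7.02, 4.62 and 5.91 in the order of MYC at 24 h and 36 h and MYC-TET1 at 24 h and 36 h. Both 36 h values exceeded both 24 h values, with log2 count ratios by time of 0.79 (0.51 to 1.08) in MYC and 0.35 (0.09 to 0.62) in MYC-TET1. Trim17, which overlaps H2aw on the same strand, had only 8 to 15 counts per library. Without H2aw the other 17 H2A genes showed no such pattern in MYC, with 156 counts at 24 h and 133 at 36 h and a log2 ratio of -0.09 (-0.78 to 0.60). In MYC-TET1 they had 106 and 211 counts and a log2 ratio of 0.97 (0.30 to 1.69). Of these, H2ac18 (chr3:96245497-96246082, forward strand) had 34 and 39 counts in MYC and 23 and 84 in MYC-TET1, at 24 h and 36 h in turn. Its near-identical copy H2ac19, all of whose windows occur elsewhere, had a count of 0 in every library. H2ac18 also overlaps Gm20634 on the same strand.

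The H2B genes were the second class by counts, with 7.78 and 9.40 CPM in MYC and 9.57 and 10.1 in MYC-TET1, at 24 h and 36 h in turn. In no comparison did the interval of the class exclude 0. The log2 ratio by time was 0.27 (-0.06 to 0.62) in MYC and 0.07 (-0.23 to 0.37) in MYC-TET1, and by plasmid 0.30 (-0.03 to 0.63) at 24 h and 0.10 (-0.22 to 0.41) at 36 h. H2B was the only class higher in MYC-TET1 at both times, with intervals that include 0 at both.

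Of the H2B genes, 3 reached an FPKM of 1. H2bc4 (chr13:23684199-23692908, forward strand) had an FPKM of 1.62 and 2.26 in MYC and 2.35 and 2.47 in MYC-TET1, at 24 h and 36 h in turn, so that MYC at 24 h stood lowest. H2bc21 (chr3:96221119-96223738, forward strand), none of whose windows occur in another gene, had an FPKM of 0.745 and 0.878 in MYC and 0.802 and 1.12 in MYC-TET1. Its interval included 0 in all 4 comparisons. H2bu2 (older symbol Hist3h2ba, chr11:58948920-58949533, forward strand) had 59 and 101 counts in MYC and 52 and 96 in MYC-TET1. Both of its 36 h values exceeded both 24 h values, with log2 count ratios of 0.92 (-0.05 to 1.89) in MYC and 0.86 (-0.12 to 1.92) in MYC-TET1. For time, edgeR gave it a log2 fold change of 0.87 and an adjusted p of 0.470. Of the 18 H2B genes 7 were at 0 in some libraries but not in all. H2bc14, for example, had 4, 0, 27 and 0 counts, and H2bc15 had 15, 0, 0 and 4, in the order of MYC at 24 h and 36 h and MYC-TET1 at 24 h and 36 h.

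H2aw and H2bu2 lie next to each other in the same direction, 5151 bases apart, and both were higher at 36 h in each plasmid. Summed, this chromosome 11 pair gave log2 ratios by time of 0.80 (0.53 to 1.07) in MYC and 0.39 (0.14 to 0.65) in MYC-TET1, most of it from H2aw. Their promoters are shown because H2aw holds the most counts of all histone genes and H2bu2 is its neighbour. The RefSeq windows of GRCm38.p6 run from 250 bases before to 50 bases after the start, 5′ to 3′, and capitals mark the CCAAT box, the TATA box (spelled TATAAA) and the octamer (spelled ATTTGCAT) on either strand.
H2bu2 promoter, chr11:58948661-58948960, forward strand: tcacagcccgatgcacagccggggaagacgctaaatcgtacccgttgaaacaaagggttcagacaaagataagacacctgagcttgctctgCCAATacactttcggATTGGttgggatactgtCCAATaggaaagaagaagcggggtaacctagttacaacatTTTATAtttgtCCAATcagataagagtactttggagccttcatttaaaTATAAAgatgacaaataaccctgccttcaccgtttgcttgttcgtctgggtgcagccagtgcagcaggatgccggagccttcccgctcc
H2aw promoter, chr11:58954435-58954734, forward strand: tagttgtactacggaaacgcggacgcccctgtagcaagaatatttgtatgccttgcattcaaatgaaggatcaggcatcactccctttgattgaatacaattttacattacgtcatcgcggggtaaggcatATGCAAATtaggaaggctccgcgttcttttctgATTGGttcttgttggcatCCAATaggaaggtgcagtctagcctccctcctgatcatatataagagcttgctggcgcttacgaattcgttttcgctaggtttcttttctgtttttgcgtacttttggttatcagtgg
The H2bu2 window holds 4 CCAAT matches, 76, 127, 144 and 159 bases before the start, and TATAAA 39 bases before it, with another on the other strand 87 bases before it. The H2aw window holds 2 CCAAT matches, 68 and 86 bases before the start, and the octamer ATTTGCAT on the other strand 119 bases before it. Windows were found for 61 of the 67 genes, 62 windows in all. CCAAT, bound by the factor NF-Y, was in 85.5% of them against 37.4% of all 32851 promoter windows, and in each H1, H2A, H2B and H3 window but only 25.0% of the 12 H4 windows. TATAAA was in 56.5% against 13.6%. The octamer ATTTGCAT, long known from H2B promoters, was in 41.2% of the H2A and 41.2% of the H2B windows, in 0 of the H1, H3 and H4 windows, and in 1.74% of all. A match is a run of letters and not a shown binding site.

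The H3 genes, whose product carries many of the regulatory histone modifications, had the fewest counts. They gave 2.05 and 3.81 CPM in MYC and 2.35 and 2.98 in MYC-TET1, at 24 h and 36 h in turn. The log2 ratio by time was 0.89 (0.28 to 1.54) in MYC and 0.34 (-0.27 to 0.92) in MYC-TET1, from 137 and 231 counts and from 168 and 216 counts. By plasmid it was 0.20 (-0.44 to 0.90) at 24 h and -0.36 (-0.90 to 0.19) at 36 h. Over only the H3 genes that share under 50% of their windows with other genes, the ratio by time was 0.27 in MYC and -0.83 in MYC-TET1, so the direction in MYC-TET1 turned. The highest FPKM of any H3 gene was 0.807, so none was compared by the 2-fold rule. Higher at 36 h in both plasmids were 5 of the 12, and 0 were lower in both, against 27.0% and 22.4% of all genes with a count. H3c6 and H3c10 were more than 2-fold higher at 36 h in both plasmids when no filter was applied, a rule that 0.573% of all genes with a count met. These were the only 2 of the 61 histone genes counted in any library to meet it. H3c6 had 4 and 20 counts in MYC and 0 and 8 in MYC-TET1, and H3c10 had 2 and 10 in MYC and 4 and 12 in MYC-TET1. At most 20 counts lie behind any of these values, and 73.4% and 93.9% of the windows of H3c6 and H3c10 also occur in other genes.

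The H4 genes, which encode one of the most conserved proteins known, gave 3.58 and 3.96 CPM in MYC and 2.95 and 4.20 in MYC-TET1, at 24 h and 36 h in turn. The log2 ratio by time was 0.15 (-0.38 to 0.66) in MYC and 0.51 (0.00 to 1.03) in MYC-TET1, and by plasmid -0.28 (-0.83 to 0.25) at 24 h and 0.09 (-0.41 to 0.58) at 36 h. Of its 13 genes 12 were counted in all 4 libraries. H4c9 (chr13:22040636-22041362, reverse strand) had an FPKM of 0.804 and 1.08 in MYC and 0.983 and 0.977 in MYC-TET1. Hist1h4m (chr13:21811746-21812147, forward strand) had 16 and 29 counts in MYC and 16 and 40 in MYC-TET1. Both of its 36 h values exceeded its 24 h values, while the intervals of its log2 count ratios, -0.76 to 3.32 in MYC and -0.32 to 3.54 in MYC-TET1, included 0.

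Within the H2A, H2B, H3 and H4 classes the coding sequences are close copies. No pair of H1 genes had equal coding length, so that class was not compared. Between genes of equal coding length, the median identity was 96.7% among H2A, 95.6% among H2B, 97.5% among H3 and 93.9% among H4 genes. In 32 of the 67 genes at least 50% of the 50-base windows also occur in another gene, and these genes held 14.4% to 18.6% of the histone counts. How the counting treated reads that fit several of them is not given in the sources used here.

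By position, the 31 genes of chromosome 13 between positions 23531050 and 23934851 gave log2 ratios by time of 0.46 (0.19 to 0.74) in MYC and 0.26 (-0.01 to 0.54) in MYC-TET1. The 23 genes between positions 21715763 and 22043676 gave 0.00 (-0.50 to 0.49) and -0.06 (-0.49 to 0.36). The 10 genes of the chromosome 3 cluster gave 0.42 (-0.04 to 0.87) and 0.63 (0.20 to 1.06). Only H4f16 lies on chromosome 6, with 4 to 27 counts. By plasmid at 36 h the 31 genes gave -0.26 (-0.52 to -0.00) and the chromosome 11 pair gave -0.25 (-0.48 to -0.01). The intervals of the other places included 0 at 36 h, and those of all places did at 24 h.

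By time, the summed counts of the genes that make and remove histone messages had log2 ratios between -0.03 and 0.05. Of 13 genes for histone pre-mRNA transcription and 3′ end processing, 12 could be compared and 0 passed 2-fold in any comparison. Their summed counts had log2 ratios by time of -0.01 (-0.04 to 0.02) in MYC and 0.05 (0.02 to 0.08) in MYC-TET1. Slbp, the stem-loop binding protein, had an FPKM of 14.4 in MYC at 24 h and at 36 h and of 14.0 and 14.8 in MYC-TET1. Npat, which activates histone gene transcription, ranged from 5.64 to 6.72. Lsm10, a subunit of the U7 particle that directs the cleavage, had an FPKM of 14.1 and 15.0 in MYC and 7.72 and 11.7 in MYC-TET1, at 24 h and 36 h in turn, so that both MYC-TET1 libraries were lower. Its log2 ratio was -0.86 at 24 h and -0.35 at 36 h, under the 2-fold threshold. Of the 8 genes for histone mRNA decay 0 passed 2-fold, and Eri1, the exonuclease that trims the stem-loop, had an FPKM between 11.6 and 12.2.

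Of 38 genes of DNA replication and S phase, 1 passed 2-fold. It was Fen1, the flap endonuclease, with an FPKM of 72.0 in MYC at 24 h and of 24.0 to 27.1 in the other 3 libraries. Its log2 ratio was -1.58 by time in MYC and -1.46 by plasmid at 24 h, both set by the same library. The summed counts of this list were lower at 36 h by log2 ratios of -0.06 (-0.08 to -0.05) in MYC and -0.03 (-0.04 to -0.01) in MYC-TET1. The histone sums and this list thus had opposite signs by time in both plasmids. The list's sum in MYC includes Fen1, and its value without Fen1 was not computed. Over the 38 genes the median log2 FPKM ratio was -0.04 in MYC, with 17 higher and 21 lower. In MYC-TET1 it was -0.03, with 14 higher and 24 lower. The 18 genes of G2 and mitosis were higher at 36 h by 0.14 (0.12 to 0.15) in MYC and 0.13 (0.11 to 0.14) in MYC-TET1, with 0 past 2-fold.

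The 11 replication-independent histone genes gave 0.09 (0.07 to 0.12) in MYC and 0.12 (0.09 to 0.14) in MYC-TET1 by time. Among them H2az1, the variant H2A.Z, had an FPKM of 139 and 163 in MYC and 134 and 164 in MYC-TET1, at 24 h and 36 h in turn, while H3f3b stayed between 192 and 201. Of the 22 histone chaperones 0 passed 2-fold. The ratio by time closest to the threshold was that of Daxx, the H3.3 chaperone, with an FPKM of 30.9 and 17.9 in MYC and 29.4 and 19.4 in MYC-TET1, at 24 h and 36 h in turn, lower at 36 h in both plasmids.

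**Figure D5:**
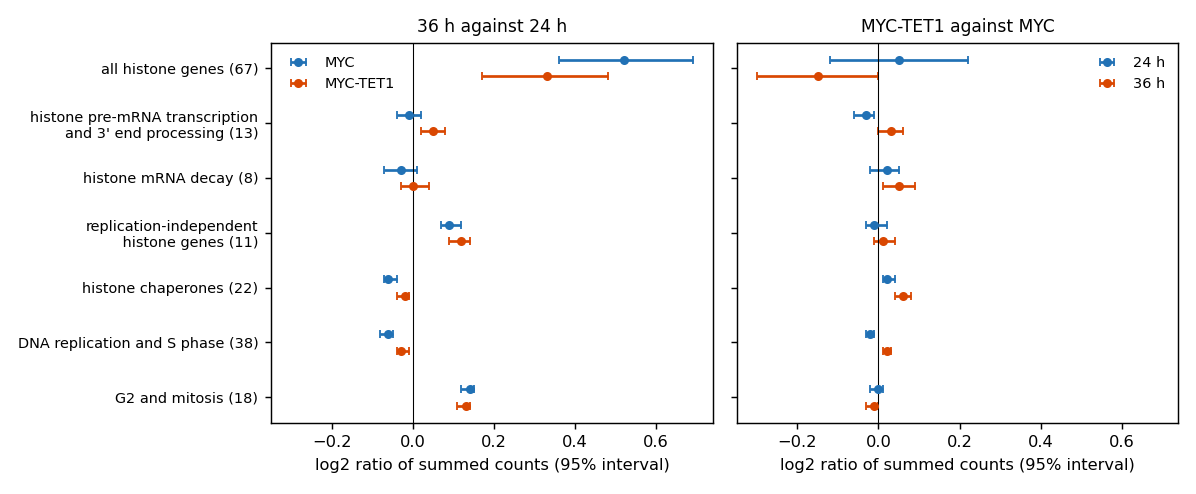
Log2 ratio of summed counts of the histone genes and of 6 related gene lists, by time (left, for each plasmid) and by plasmid (right, for each time), with 95% intervals that cover counting error only; the number of genes is in brackets. The histone genes have the largest ratios by time, 0.52 and 0.33, and all other lists lie between -0.06 and 0.14.

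Other RNAs that lack a poly(A) tail were measured as a comparison for how much of such RNA the libraries hold. The 1383 rows of small nuclear RNAs together had only 4.01 to 5.01 CPM, and the 1507 rows of small nucleolar RNAs 36.5 to 40.6. By time the small nucleolar RNAs had log2 ratios of -0.10 (-0.26 to 0.06) in MYC and -0.09 (-0.24 to 0.05) in MYC-TET1. The small nuclear RNAs had 0.18 (-0.27 to 0.67) and -0.32 (-0.78 to 0.12). Of 8 named RNAs without a tail, Rn7sk, Rn7s1 and Rn7s2 reached an FPKM of 1, and their 11 to 48 counts per library were too few for an order. Whether the libraries took in RNA without a tail to different extents was not tested.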

How the data were processed

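RNA-seq data of 4 libraries from GC-1 cells were used. The authors deposited counts and FPKM values per gene for 4 libraries in 1 table. The aligner, counter and annotation are not given in the paper, and the submitters' processing notes list Bowtie 0.12.2 and the builds mm8 and mm9, while the deposited coordinates of all 67 genes equal those of GENCODE M21 on GRCm38 (94.3% of the 55144 rows found there do). The deposited counts were not whole reads: compared with FPKM times transcript length, at least 99.8% of the low counts in each library were such a product rounded up to a whole number, and its most frequent value was 3.76, taken as 1 fragment. Counts were therefore divided by 3.76 for intervals, a choice made after seeing the data, instead of the planned intervals on counts, which would exclude 0 in 17 of 24 sums against 8 here. Library totals ran from 60611877 to 72547105 counts.

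Libraries were compared as the log2 ratio of FPKM (pseudocount 0.1, FPKM of at least 1 in 1 of the 2 libraries, 2-fold), as the ratio of summed counts over library totals with exact Clopper-Pearson 95% intervals (exact Poisson for single levels), and with edgeR 4.0.16 (TMM, at least 10 counts in 2 libraries, Benjamini-Hochberg adjusted p under 0.05) on the whole table, tested on simulated data. The simulation changed only well-counted genes, and by a large factor, so it gives no measure of power for most histone genes. Alternatives used DESeq2 1.42.0 and other filters and scalings. R 4.3.3, Python 3.11.15 and RefSeq promoter windows were used. The members, lists and tests were chosen with earlier results of these data known. In each class the genes named are up to 6 with the highest mean FPKM among those at 1 or more, those 2-fold different the same way in both plasmids or at both times, and those called by edgeR, and in other lists up to 4 by mean FPKM and those 2-fold different. Examples outside this rule, among them H1f4, H1f5, H1f6, H2ac1, H2ac19, H2ac20, H2ac21, H2bc1, H2bc14, H2bc15, H4c11, H4f16, Npat, Slbp, Lsm10, Eri1 and Daxx, were chosen after their values were seen. The decay list also held 2 older names of Tut4 and Tut7, which had no row of their own.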

Additional observations from a re-analysis of the deposited data

Results flagged for a closer look

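The difference between MYC-TET1 and MYC had opposite signs at 24 h and 36 h for several sums. Each side rests on 1 library, so the difference between the times was not tested over replicates. Given at 24 h and then at 36 h as log2 ratios of counts, the values were 0.05 and -0.15 for all histone genes, 0.07 and -0.15 for H2A, 0.20 and -0.36 for H3, and -0.28 and 0.09 for H4. The H2A signs turned without H2aw, to -0.65 and 0.41. Among single genes they were 0.20 and -0.24 for H2aw, -0.66 and 0.85 for H2ac18, 0.28 and -0.13 for H4c9, and -0.10 and 0.20 for Hist1h4m. The 95% counting intervals of all 16 values include 0. The change of the ratio from 24 h to 36 h, with its standard error from counting alone, was -0.20 (0.11) for all histone genes, -0.21 (0.18) for H2A, -0.55 (0.42) for H3 and 0.36 (0.36) for H4, each less than 2 such errors. For the single genes it was not tested.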

How the results depend on the processing

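The summed counts of all histone genes stayed within their counting intervals in all 24 recomputed values: by time they ranged from 0.38 to 0.60 in MYC and from 0.26 to 0.38 in MYC-TET1. With DESeq2, other size factors, no filter, no block or counts divided by the weight of 1 fragment, edgeR and DESeq2 still called 0 histone genes. Over all genes the calls for time were 17 with edgeR, 409 with DESeq2, 0 without the filter, 75 without the block and 111 on fragment equivalents. For plasmid they were 8, 112, 2, 1 and 10 in that order. The counts of genes at least 2-fold different depended most on the filter. Without it 25 genes were called by time in MYC, 20 by time in MYC-TET1, 15 by plasmid at 24 h and 16 by plasmid at 36 h. Of the histone genes with a count in either library these are 42.4%, 34.5%, 25.0% and 28.6%, against 10.3%, 8.84%, 8.01% and 9.81% of all such genes. At 1.5-fold, 4 of 6 genes were called by time in MYC, against 10.8% of all genes compared, 3 of 7 by time in MYC-TET1, against 9.17%, 0 of 4 by plasmid at 24 h, against 7.03%, and 1 of 8 by plasmid at 36 h, against 8.52%. In MYC-TET1 by time a pseudocount of 1 left 0. An FPKM of at least 5 also left 0, as neither of the called genes reached that level. CPM with TMM factors gave 1 by plasmid at 24 h. Of 120 recomputed class sums 108 stayed within their intervals. The H2A ratio by time in MYC, 0.65, reversed to -0.09 without H2aw and to -0.52 without genes overlapped on the same strand, an alternative chosen after seeing the data that also removes H2aw. That of H3 by time was 0.27 in MYC and -0.83 in MYC-TET1 over the genes that share less than 50% of their windows, an alternative chosen after seeing the data, and the cause was not tested. The H1 ratio by time in MYC was 0.02 without H1f2. The edgeR fit compares the times within each plasmid, which takes the plasmid as a block, but with 1 library per condition there are no replicates to pair or to leave out. With 54 of 67 genes under 10 fragments in every library, depth limits single genes more than sums, and the part of low counts in the shares without a filter was not tested.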
